A study of Mus musculus with 84 samples.

Results

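The Hox genes encode homeodomain transcription factors that give cells along the head-to-tail axis their positional identity. All 38 Hox genes listed here, of 25494 genes in the RNA-seq count table, were taken by symbol: 10 in the Hoxa cluster, 10 in Hoxb, 9 in Hoxc and 9 in Hoxd. No value in the files served as a threshold, but the family was picked with earlier results of these RNA-seq libraries in view, among them low posterior Hox genes in single libraries, so the members count as selected on measured RNA levels, which are a description below and support nothing by themselves. The peak lists were not used for that choice.

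In the long-term experiment, singly housed C57BL/6 males and females received a high fat diet (HFD, 60% of it fat) or a low fat diet (LFD, 10%) for up to 20 weeks. ChIP-seq was done on colon epithelium released with EDTA: H3K27ac, a histone mark of active promoters and enhancers, and H3K4me1, a mark of active or poised enhancers, with 3 libraries per sex, diet and mark, and the transcription factor HNF4α with 2 libraries per diet, in males alone. In the transplantation experiment, germ-free C57BL/6 males were gavaged 4 times a week from 6 weeks of age with feces of male donors kept on the HFD (high fat bacteria, HFB) or on the LFD (low fat bacteria, LFB), while eating either diet themselves for 5 weeks. The groups were HFDHFB, HFDLFB, LFDHFB and LFDLFB, the recipient's diet first and the donor bacteria second. RNA-seq used cells scraped from the colon, 3 libraries per group, and H3K27ac ChIP-seq used epithelium, with 2 libraries in HFDHFB and 3 in each other group. All recipients, controls included, were males born germ-free that had been colonized with transplanted bacteria. The labels number the replicates without saying which segment of the colon a sample came from. Nor do they say whether an RNA and a ChIP library share an animal, so p-values measure the spread between these samples. Marker genes are the only trace of position along the colon here, and they do not establish it.

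Mouse Hox genes lie in 4 clusters, and within a cluster the genes at the 3′ end, with low paralog numbers, are used in anterior structures and early in development, while the genes at the 5′ end, with high numbers, are used posteriorly and late. In the gut this order persists in the adult: the genes of paralog group 13 are typical of the hindgut, from which the distal colon arises. HOX proteins bind DNA with cofactors of the TALE homeodomain class, retinoic acid and CDX factors switch Hox clusters on, and Polycomb proteins keep unused parts of a cluster silent. In mm9 coordinates the members span chr6:52112416-52210874 (Hoxa), chr11:96055675-96229567 (Hoxb), chr15:102751562-102867283 (Hoxc) and chr2:74506367-74603199 (Hoxd).

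The sequences below are the ones that the later results refer to, read from the mm9 genome and written 5′ to 3′. The first pair are the only places in the clusters where all 4 HNF4α libraries had a peak. Site 2 lies at chr6:52140846-52141126 in introns of Hoxa4 and of longer Hoxa3 transcripts, 717 bp downstream of its start, and site 12 at chr11:96120844-96121117 in an intron of Gm53, 11660 bp upstream of Hoxb9. Both are given on the plus strand, and capitals mark matches to TTTATNG, a core that CDX factors recognize.
Site 2: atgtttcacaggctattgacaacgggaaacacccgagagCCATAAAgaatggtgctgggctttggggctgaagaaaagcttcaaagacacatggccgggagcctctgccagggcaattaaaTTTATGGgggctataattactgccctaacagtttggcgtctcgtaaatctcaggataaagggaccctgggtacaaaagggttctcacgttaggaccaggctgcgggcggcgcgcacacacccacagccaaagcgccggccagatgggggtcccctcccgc
Site 12: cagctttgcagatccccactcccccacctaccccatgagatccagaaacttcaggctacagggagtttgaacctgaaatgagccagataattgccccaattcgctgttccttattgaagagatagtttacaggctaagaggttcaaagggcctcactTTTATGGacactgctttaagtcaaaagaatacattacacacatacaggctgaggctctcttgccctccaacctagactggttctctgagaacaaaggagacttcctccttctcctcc
Site 2 also held 1 match to the HNF4 core CAAAGNNCA, on the minus strand and apart from the CDX core matches, and site 12 held none. The next set are the bases just before the starts of 3 genes whose levels differed widely between libraries: Hoxb8 at chr11:96142969-96143218, Hoxb13 at chr11:96055425-96055629 and Hoxd13 at chr2:74506117-74506366, all on the plus strand. For Hoxb13, the 45 bases next to the start given by the count table are left out because a GENCODE exon covers them. Capitals again mark TTTATNG.
Hoxb8: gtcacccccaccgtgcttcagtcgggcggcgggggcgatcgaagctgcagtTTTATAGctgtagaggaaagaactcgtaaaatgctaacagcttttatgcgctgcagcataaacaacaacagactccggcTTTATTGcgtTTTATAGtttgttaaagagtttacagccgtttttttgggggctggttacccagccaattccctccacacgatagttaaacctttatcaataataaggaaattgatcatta
Hoxb13: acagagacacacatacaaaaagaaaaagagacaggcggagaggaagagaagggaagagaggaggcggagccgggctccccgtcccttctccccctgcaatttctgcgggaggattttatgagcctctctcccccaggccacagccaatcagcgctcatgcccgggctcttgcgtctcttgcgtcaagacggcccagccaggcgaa
Hoxd13: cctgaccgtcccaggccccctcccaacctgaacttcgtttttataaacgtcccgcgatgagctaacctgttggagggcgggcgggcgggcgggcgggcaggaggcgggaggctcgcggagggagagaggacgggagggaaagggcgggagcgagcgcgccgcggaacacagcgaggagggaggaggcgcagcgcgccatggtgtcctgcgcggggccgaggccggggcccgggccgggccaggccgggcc
Hoxb8 had 3 matches, at 199, 120 and 110 bases before the start, and neither Hoxb13 nor Hoxd13 had any. Searched on both strands, the core occurred in the 250 bases before the start of 5 of 38 members (Hoxb6, Hoxb8, Hoxc5, Hoxc12 and Hoxd4) and of 9.25% of all 25334 genes with such a sequence. The HNF4 core was found before the start of 3 members (Hoxa3, Hoxc5 and Hoxc6) and of 5.05% of all genes. The Hoxd13 sequence was 74.4% G or C, and that of Hoxb8 44.4%. A match is a description of these letters and does not show that a factor binds.

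The 12 RNA-seq libraries held 39904191 to 48026846 counted reads, and 3 reads corresponded to 0.0645 to 0.0728 CPM, where CPM is the usual depth-scaled read count, on library sizes scaled by TMM factors of 0.921 to 1.1. Epithelial markers were abundant in every library, with a summed level of 9094 to 13799 CPM over 8 of 8 genes, Krt8 and Epcam among them, and markers of other tissues were present as well, with smooth muscle at 1080 to 6975 CPM (8 of 8 genes, Tagln and Acta2 among them), highest in HFDHFB 3 and next in LFDHFB 3 at 5310. A pair of libraries stood apart in the Hox genes before any comparison. The library LFDHFB 3 had the lowest Hoxb13, Hoxd13, Hoxd12, Hoxd11, Hoxa13, Hoxa10 and Hoxa9 of all 12 and the highest Hoxb2 to Hoxb9. HFDHFB 3 had low Hoxd10 to Hoxd13, with Hoxb13 and Hoxa13 near the other libraries. Their part in the comparisons is given by leaving them out.

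The strongest posterior gene was Hoxb13, the most 5′ member of its cluster and a gene of hindgut and prostate epithelium. Per length it had the highest mean level of the family, 406 RPKM (CPM per kb of exon), followed by Hoxd13 at 30.6, Hoxa13 at 21.2 and Hoxb9 at 19.0. The Hoxb cluster took 60.4% to 78.1% of all reads counted in members, and Hoxc 0.0150% to 1.21%, as shares of reads and not per length. Hoxb13 was at 500, 433 and 442 CPM in HFDHFB, 362, 566 and 693 in HFDLFB, 738, 598 and 16.4 in LFDHFB and 827, 454 and 771 in LFDLFB. All libraries but LFDHFB 3 lay within 362 to 827 CPM, and LFDHFB 3 was 34.5-fold below the median of the other 11. The group means overlapped widely: 458 ± 36.2, 540 ± 167, 451 ± 383 and 684 ± 201 CPM (SD, n = 3 in each).

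Hoxd13, its paralog in a cluster used in limbs, external genitalia and hindgut, varied more. It was at 132, 86.6 and 8.23 CPM in HFDHFB, 31.4, 50.3 and 115 in HFDLFB, 93.9, 113 and 0.519 in LFDHFB and 86.4, 45.2 and 148 in LFDLFB. The low values were again LFDHFB 3, at 24 reads and 167-fold below the median of the other libraries, and HFDHFB 3, 10.5-fold below. The neighbours of Hoxd13 had the same low libraries. Hoxd11 was at 38.6, 20.5 and 1.97 CPM in HFDHFB, 14.9, 15.4 and 39.8 in HFDLFB, 24.9, 42.3 and 1.81 in LFDHFB and 35.9, 17.1 and 64.8 in LFDLFB. Hoxd10 was at 23.7, 10.8 and 1.19, then 9.19, 7.93 and 22.1, then 11.6, 22.4 and 3.13, and 13.8, 7.91 and 31.9 CPM in the same order of groups. Hoxd12 was at 1 read in LFDHFB 3, 0.0216 CPM, against 1.14 to 16.6 CPM elsewhere.

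Hoxa13, the group 13 gene of the Hoxa cluster, had a narrower range. It was at 30.9, 18.4 and 22.4 CPM in HFDHFB, 16.8, 29.3 and 28.4 in HFDLFB, 39.4, 35.3 and 7.89 in LFDHFB and 37.7, 32.0 and 33.8 in LFDLFB. LFDHFB 3 was 3.91-fold below the median of the others, a smaller gap than for Hoxb13 and Hoxd13. HFDHFB 3, low in the Hoxd genes, was inside the range of its group for Hoxa13 and Hoxb13, so the posterior genes of the 3 clusters were not low in the same libraries throughout. Hoxc13 and Hoxc12 had no read in any library.

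**Figure D1:**
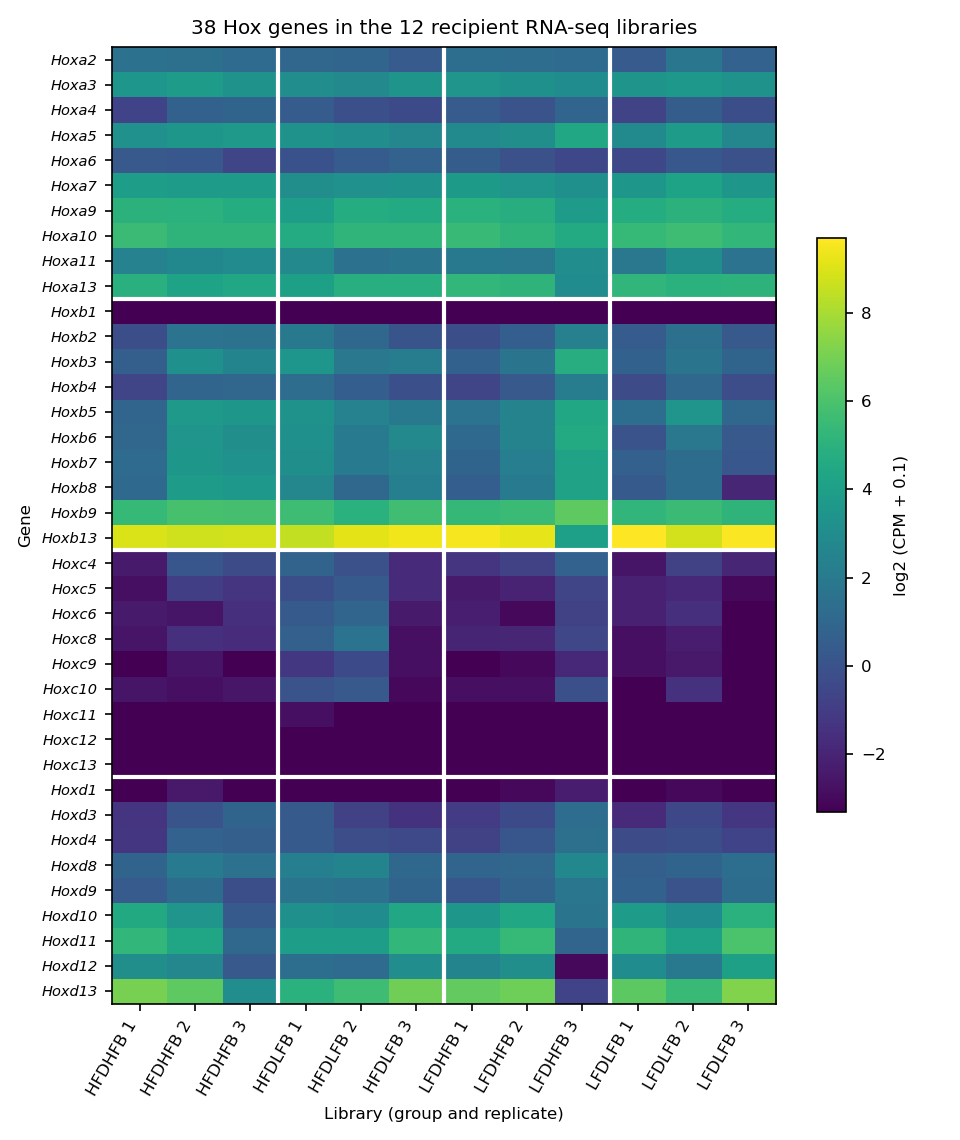
Levels of the 38 Hox genes (rows, in paralog order within the 4 clusters) in the 12 recipient RNA-seq libraries (columns, white lines between groups of 3), as log2 of CPM plus 0.1. Hoxb13 is the brightest row except in LFDHFB 3 (16.4 CPM), Hoxd10 to Hoxd13 are dark in LFDHFB 3 and HFDHFB 3, and Hoxc9 to Hoxc13 are near 0 in most libraries.

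The 3′ and middle Hoxb genes, Hoxb2 to Hoxb8, are used anterior to Hoxb13. Their summed level was 119 CPM in LFDHFB 3, and between 8.05 (LFDLFB 3) and 62.9 CPM (HFDHFB 2) in the other 11. Hoxb6, the one of them with the highest mean level per length, was at 1.86, 11.1 and 8.5 CPM in HFDHFB, 9.02, 3.94 and 6.77 in HFDLFB, 2.09, 5.5 and 25.1 in LFDHFB and 0.890, 3.54 and 1.14 in LFDLFB. The highest library was LFDHFB 3 and the lowest LFDLFB 1, and of the 4 pairs of groups compared only HFDLFB against LFDLFB had no overlap. Hoxb3 was at 27.1 CPM in LFDHFB 3 against 1.45 to 11.4 elsewhere. Hoxb8 ranged from 0.160 CPM (7 reads, LFDLFB 3) to 17.8 CPM (LFDHFB 3), and Hoxb2, Hoxb4, Hoxb5 and Hoxb7 were likewise highest in LFDHFB 3, at 5.01, 4.26, 22.1 and 17.8 CPM.

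Hoxb9, which lies between these genes and Hoxb13, was the steadiest of the cluster. It was at 42.1, 59.1 and 56.9 CPM in HFDHFB, 49.8, 31.5 and 51.1 in HFDLFB, 40.4, 46.4 and 87.9 in LFDHFB and 38, 46.3 and 35.8 in LFDLFB. LFDHFB 3 was highest here too, 1.90-fold above the median of the others. Hoxb1, the most 3′ gene of the cluster and a gene of the embryonic hindbrain, had no read in any library.

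The ratio of Hoxb13 to summed Hoxb2 to Hoxb8 gives the balance of the cluster in each library. It was 46.6, 6.88 and 8.44 in HFDHFB, 6.98, 25.5 and 25.7 in HFDLFB, 66.8, 23.4 and 0.138 in LFDHFB and 86.2, 17.0 and 95.8 in LFDLFB. Every group held libraries with a ratio several times that of another library of the same group, and LFDHFB 3 was the only library with less Hoxb13 than Hoxb2 to Hoxb8.

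**Figure D2:**
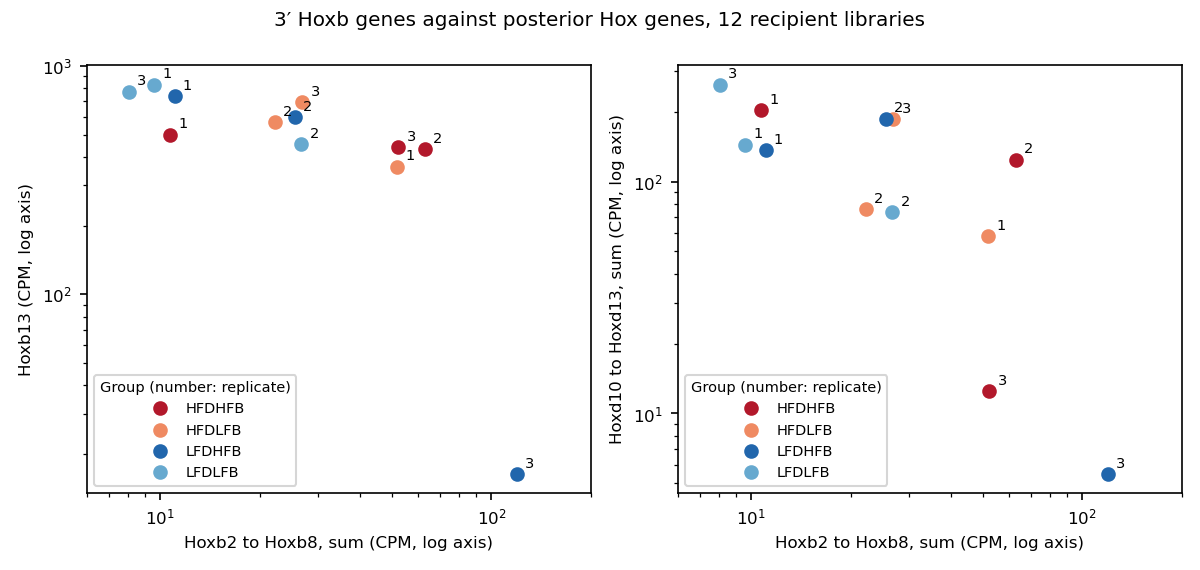
Hoxb13 (left) and the sum of Hoxd10 to Hoxd13 (right) against the sum of Hoxb2 to Hoxb8, in CPM on log axes, 1 point per recipient library, coloured by group and numbered by replicate. LFDHFB 3 is at the far right and lowest in both panels (119 CPM of Hoxb2 to Hoxb8), and HFDHFB 3 is low only in the right panel.

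Other genes that differ along the colon were read beside these values. Atp12a, the colonic proton and potassium pump, is a gene of the distal colon, and it was at 56.7 CPM in LFDHFB 3 against 750 to 3056 in the others. The epithelial sodium channel subunits Scnn1a, Scnn1b and Scnn1g, also distal, were at 100.7, 6.53 and 1.27 CPM in LFDHFB 3, against 197 to 379, 17.9 to 104.6 and 26.1 to 256 CPM. HFDHFB 3 was at 1431 CPM of Atp12a and at 26.1 CPM of Scnn1g, the lowest of the other 11 for the latter. Summed over these 4 genes, HFDHFB 3 was at 1724 CPM, inside the 991 to 3401 CPM of the libraries other than LFDHFB 3. Cdx2, an intestinal regulator of Hox genes, was highest in LFDHFB 3 at 239 CPM, against 38.1 to 179 elsewhere, and Aldh1a1, which makes retinoic acid, was at 656 CPM against 42.8 to 354. Enteric neuron and glia markers summed to 213 CPM in LFDHFB 3 against 31.9 to 127 elsewhere (8 of 8 genes measured, none at 0 in every library), while its epithelial sum of 9692 CPM lay inside the range of the others. In such bulk RNA, fewer cells of a type and less RNA per cell cannot be told apart. No label gives the position of any sample, and the part of dissection in these values was not tested.

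The Hoxa genes ranged less. Hoxa10, a posterior abdominal gene, was at 46.0, 34.6 and 35.1 CPM in HFDHFB, 25.3, 36.3 and 36.9 in HFDLFB, 45.5, 35.7 and 24.4 in LFDHFB and 41.8, 50.8 and 38.8 in LFDLFB. Hoxa7, a trunk gene, was at 15.8, 14.2 and 14.4, then 8.64, 9.57 and 10.3, then 13.7, 11.1 and 9.07, and 11.6, 18.6 and 11.8 CPM in the same order. Hoxa3, known for neck and thymus, was at 11.3, 14 and 10.3, then 8.21, 6.87 and 10.4, then 11.1, 9.22 and 7.80, and 10.6, 12 and 9.95 CPM. Hoxa7 was higher in every HFDHFB than in every HFDLFB library, and Hoxa10 and Hoxa3 overlapped between the donors. The other Hoxa members were within 3.5-fold from lowest to highest library except Hoxa13 at 5.0-fold, and ranged from Hoxa6, at 0.558 to 1.58 CPM, to Hoxa9, at 14.1 to 32.5 CPM.

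The Hoxc genes were low throughout, and Hoxc6, Hoxc8 and Hoxc10 were highest in the same 3 libraries. Hoxc8, a thoracic patterning gene, was at 0.0690, 0.237 and 0.219 CPM in HFDHFB, 1.48, 3.0 and 0.0459 in HFDLFB, 0.156, 0.160 and 0.583 in LFDHFB and 0.0434, 0.109 and 0 in LFDLFB. Hoxc6 was at 0.0921, 0.0645 and 0.243, then 1.21, 1.79 and 0.0918, then 0.111, 0.0228 and 0.475, and 0.130, 0.240 and 0 CPM. Hoxc10 was at 0.0690, 0.0430 and 0.0728, then 0.895, 1.16 and 0.0230, then 0.0445, 0.0456 and 0.799, and 0, 0.262 and 0 CPM. The high libraries were HFDLFB 1, HFDLFB 2 and LFDHFB 3 in all these genes, with 124 reads of Hoxc8 in HFDLFB 2 and 2 reads in HFDLFB 3. Hoxc4, the most 3′ of the cluster, was at 0.0921, 1.01 and 0.704, then 1.68, 0.822 and 0.207, then 0.289, 0.479 and 1.60, and 0.0651, 0.481 and 0.160 CPM. Hoxc5 and Hoxc9 reached 1.18 and 0.653 CPM, and Hoxc11 was at 2 reads in HFDLFB 1 and 0 in the other 11, under the 3 reads taken as the detection limit.

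Markers of tissues outside the epithelium were high in the same HFDLFB libraries. Mesothelial markers (7 of 8 genes in the table, Upk3b and Msln among them, none at 0 in every library) summed to 405 and 505 CPM in HFDLFB 1 and 2, against 97.5 in HFDLFB 3, 49.7 to 102 in HFDHFB, 79.7 to 131 in LFDHFB and 57.0 to 208 in LFDLFB. LFDHFB 3, also high in Hoxc6, Hoxc8 and Hoxc10, was at 99.6 CPM of these markers, inside the range of its group. Adipocyte markers (8 of 8, Fabp4 and Cfd among them, none at 0 in every library) summed to 1188 and 2897 CPM in HFDLFB 1 and 2, against 336 in HFDLFB 3, 37.4 to 406 in HFDHFB, 38.8 to 961 in LFDHFB, with the 961 in LFDHFB 3, and 98.3 to 224 in LFDLFB. The part of these tissues in the Hoxc levels was not tested.

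Within groups, many Hoxb, Hoxc and Hoxd genes spread far more than most genes. Of 32 members that passed the filter on low counts, 18 (56.2%) had a within-group SD of log2 CPM over 1. This was so for 7.66% of 15893 genes tested, and the medians were 1.06 and 0.28. No Hoxa member was among the 18, the widest of them being Hoxa13 at 0.71. Hoxc4, Hoxc5, Hoxc6, Hoxc8 and Hoxc10 were among the 18 at mean levels of only 0.285 to 0.632 CPM. The genes compared were not matched for level. By this SD Hoxd13, at 2.51, ranked 3 of 15893, Hoxd12 ranked 12, Hoxd11 ranked 64, Hoxc10 ranked 91 and Hoxb13 ranked 132. Without LFDHFB 3 the median over members was 0.86, 12 members (37.5%) were over 1 beside 4.37% of all genes, and the SD of Hoxb13 fell from 1.58 to 0.37, and without both LFDHFB 3 and HFDHFB 3 the median was 0.78 with 8 members (25.0%) over 1 beside 4.73%. These members were picked with such values in view, so the shares describe them and carry no test. Hoxb1, Hoxc9, Hoxc11, Hoxc12, Hoxc13 and Hoxd1 did not pass the filter.

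**Figure D3:**
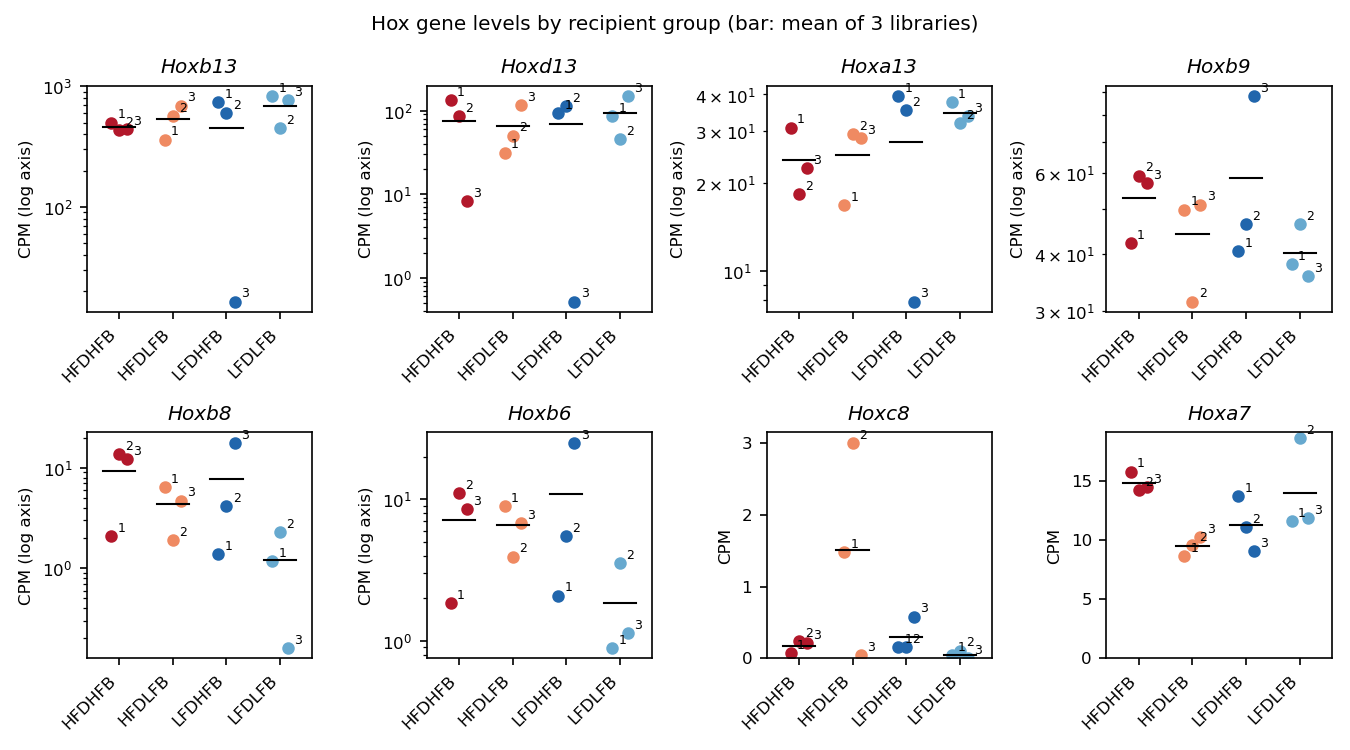
CPM of 8 Hox genes in the 4 recipient groups, 1 point per library numbered by replicate, with a bar at the mean of 3 libraries; axes are logarithmic except for Hoxc8 and Hoxa7. LFDHFB 3 is lowest for Hoxb13, Hoxd13 and Hoxa13 and highest for Hoxb9, Hoxb8 and Hoxb6, HFDLFB 1 and 2 are highest for Hoxc8, and the 3 HFDHFB libraries of Hoxa7 (14.2 to 15.8 CPM) are above those of HFDLFB (8.64 to 10.3).

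The donor comparison in HFD-fed recipients asked what bacteria of obese donors add to the obesogenic diet. In HFDHFB against HFDLFB, 0 of 32 members passed an adjusted p of 0.05 (edgeR quasi-likelihood test on all genes, Benjamini-Hochberg adjustment), where 0.0% of all 15893 genes did. At an unadjusted p under 0.05 there were 4 members, higher for Hoxa3 and Hoxa7 and lower for Hoxc6 and Hoxc8, beside 9.07% of all genes, and the DESeq2 Wald test gave 6 members at that level, beside 10.3% of all genes, and 0 after adjustment, with 80 genes (0.486%) called in all. Hoxa7 was 14.8 ± 0.854 CPM in HFDHFB and 9.49 ± 0.816 in HFDLFB (SD, n = 3), a log2 fold change of 0.64 (SE 0.21, edgeR adjusted p = 0.495). Groups did not overlap for 3 members, Hoxa2, Hoxa7 and Hoxa9, all higher in HFDHFB, beside 13% of all genes. Without LFDHFB 3 and HFDHFB 3, 6 members were under an unadjusted p of 0.05, beside 7.94% of all genes, and leaving out 1 library at a time gave 1 (without HFDHFB 1 or HFDLFB 2) to 7 members (without LFDHFB 3 or LFDLFB 2).

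By cluster, the median log2 fold change of this comparison was 0.45 over 10 Hoxa members, 0.12 over 9 Hoxb, -2.94 over 5 Hoxc and 0.04 over 8 Hoxd, against a median near 0 (-0.0019) over all genes. The Hoxc value came with log2 fold changes of -3.09 (SE 1.16, edgeR adjusted p = 0.50) for Hoxc8, -2.94 (SE 1.24) for Hoxc6 and -3.44 (SE 1.59) for Hoxc10. In each of these HFDLFB 3 lay within or below the HFDHFB range. Without HFDLFB 1 and 2, the libraries with the high mesothelial and adipocyte sums, the same changes were 1.86, 0.51 and 1.31, on a single HFDLFB library that was assumed to vary like the other groups. In those marker lists 7 of 7 mesothelial and 7 of 8 adipocyte genes were lower in HFDHFB at an unadjusted p under 0.05, and 0 at an adjusted one.

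The posterior genes did not differ detectably by donor on the HFD: log2 fold changes were -0.24 (SE 0.83) for Hoxb13, -0.06 (SE 0.46) for Hoxa13, 0.20 (SE 1.23) for Hoxd13, -0.20 (SE 1.03) for Hoxd11 and -0.14 (SE 0.92) for Hoxd10. An SE of 1.23 on the log2 scale leaves room for changes of several fold. With LFDHFB 3 and HFDHFB 3 left out together, Hoxd11 and Hoxd10 took the other sign, at 0.34 and 0.40.

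In LFD-fed recipients, LFDHFB against LFDLFB, 0 of 32 members passed the adjusted p by edgeR or by DESeq2, where 0.0% of all genes did. At an unadjusted p under 0.05 there were 4 by edgeR, Hoxb3, Hoxb6, Hoxb7 and Hoxb8, all higher in LFDHFB, beside 3.72% of all genes, and 5 by DESeq2, beside 3.93%. Hoxb6 was 10.9 ± 12.4 CPM in LFDHFB and 1.86 ± 1.46 in LFDLFB (SD, n = 3), a log2 fold change of 2.55 (SE 0.92, edgeR adjusted p = 0.975). That SD comes from LFDHFB 3: without it 0 members were under an unadjusted p of 0.05, beside 1.98% of all genes, and the log2 fold change of Hoxb6 was 1.03. The count was also 0 without LFDLFB 3, 1 without LFDLFB 1 and 8 without LFDHFB 1. Groups did not overlap for 1 member, Hoxc8, at 7, 7 and 27 reads against 2, 5 and 0, beside 10.8% of all genes. For Hoxb13 the log2 fold change was -0.60 (SE 0.84), and -0.03 without LFDHFB 3.

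The interaction compares the donor effect between the diets. Again 0 of 32 members and 0.0% of all genes passed the adjusted p. At an unadjusted p under 0.05 there were 4 members, Hoxa3, Hoxa7, Hoxc8 and Hoxc10, beside 11.3% of all genes, and 7 by DESeq2, beside 12.2%, with 35 genes (0.208%) past its adjusted p and no member among them. Without LFDHFB 3, or without it and HFDHFB 3, 2 members were under that unadjusted p, beside 8.65% and 6.24% of all genes, and without LFDHFB 1 there were 11, beside 12.5%. For Hoxa7 the interaction was 0.95 on the log2 scale (SE 0.30, edgeR adjusted p = 0.386), with the donor effect at 0.64 on the HFD and -0.31 on the LFD. For Hoxc8 it was -5.57 (SE 1.74), and this rests on 7 reads in all in LFDLFB.

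The diets were compared at each donor. Between HFDHFB and LFDHFB, 0 members passed the adjusted p by edgeR or DESeq2 (0.0% and 0.883% of all genes), where DESeq2 gave an adjusted p for only 23 members. At the unadjusted p there were 0 by either, where 7.46% of all genes passed by edgeR and 9.28% by DESeq2. Without LFDHFB 3 it was 1 member by edgeR, beside 8.77% of all genes, and 0 without both, beside 5.12%. Hoxa7 alone did not overlap, at 14.2 to 15.8 against 9.07 to 13.7 CPM, beside 11% of all genes. Between HFDLFB and LFDLFB, 0 members passed the adjusted p by either tool (0.0% and 0.0523% of all genes), and 5 the unadjusted one by edgeR, beside 5.33% of all genes: Hoxa7 lower on the HFD, and Hoxb7, Hoxc5, Hoxc6 and Hoxc8 higher. DESeq2 gave 7, beside 6.62%. Groups did not overlap for 8 members, Hoxa7, Hoxa9, Hoxa10 and Hoxa13 lower and Hoxb3, Hoxb6, Hoxb7 and Hoxc5 higher in HFDLFB, beside 11.7% of all genes. Hoxb7 was at 8.99, 4.04 and 5.42 CPM in HFDLFB and 1.5, 2.30 and 1.05 in LFDLFB, a log2 fold change of 1.93 (SE 0.80, edgeR adjusted p = 0.881). Without HFDLFB 1 and 2 no member was under an unadjusted p of 0.05 in this comparison or in the donor comparison on the HFD, beside 1.84% and 2.61% of all genes, and without LFDHFB 3, which shares in the estimate of the spread, 11 and 7 were, beside 7.99% and 11.4%. The count between HFDLFB and LFDLFB was 2 without HFDLFB 1 or LFDLFB 3 and 10 without HFDLFB 3. These comparisons share their groups, so their counts are not independent of each other.

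Genes around the Hox program were taken from lists of cofactors and regulators. Of 9 TALE cofactors, with Pbx2 at 39.9 to 47.8 CPM, 0 passed an adjusted p in any of the 5 comparisons, and at most 1 passed an unadjusted one. Of 9 ParaHox and hindgut regulators, Cdx4, Gsx1 and Gsx2 had no read in any library, 6 were tested and 0 passed, and Cdx1, a regulator of intestinal identity, was at 235 to 358 CPM. Of 18 Polycomb and trithorax genes, 0 passed in either direction, with Ezh1 at 59.7 to 90.3 CPM and Kdm6b, which removes the Polycomb mark, at 42.1 to 58.1. Of 7 retinoic acid genes tested, 0 passed, with Aldh1a1 as above and the receptor Rara at 22.0 to 37.1 CPM. So did 0 of 4 distal colon transport genes. Markers of endothelium (32.9 to 100.6 CPM summed), leukocytes (152 to 412), fibroblasts (413 to 1716) and exocrine pancreas gave 0 calls past an adjusted p as well. The pancreatic gene Ctrb1 was at 116 CPM in HFDLFB 3 and at most 0.738 elsewhere, and Cela1, on the same list, was at 55.3 CPM in LFDHFB 3 against 247 to 622.

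Noncoding genes inside the clusters were counted too. Hoxa11os, opposite to Hoxa11, was at 21.4 CPM in LFDHFB 3 and 30.9 to 102 elsewhere, and Hoxa11 itself at 2.95 to 8.44. Mira, in the Hoxa cluster, was at 16, 19.6 and 18.4 CPM in HFDHFB and 11, 11.1 and 8.95 in HFDLFB, and Hoxaas3 at 3.94, 3.92 and 3.11 against 2.13, 2.15 and 2.62, with edgeR adjusted p of 0.495 and 0.565. Gm11538, which lies between Hoxb13 and Hoxb9, was at 1.1 CPM in LFDHFB 3 and 9.17 to 25.5 elsewhere, whereas Gm53, which runs over site 12, was even at 23.3 to 32.1 CPM. Whether the counting used strand is not given in the sources used here, so reads of antisense or overlapping genes cannot be assigned with certainty, which touches at least Hoxa3, Hoxa4, Hoxa5, Hoxa6, Hoxa11, Hoxb2, Hoxb5, Hoxb6, Hoxd3 and Hoxd4. Hoxb5os, antisense to Hoxb5 and Hoxb6, was at 1.35 to 4.34 CPM.

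In chromatin, H3K27ac covered more of Hoxa than of Hoxb, more of Hoxb than of Hoxd and more of Hoxd than of Hoxc in all 23 lists, without overlap. Peaks are stretches that the authors called, with no height or score in the lists, so the values are the share of a cluster, with 1000 bp added at each end, that peaks cover. H3K27ac covered 72.7% to 86.5% of Hoxa in the 12 long-term libraries and 67.4% to 77.9% in the 11 recipient libraries. It covered 41.8% to 54.7% of Hoxb in the long-term libraries and 23% to 48.1% in recipients. Hoxd had 4.05% to 14.2% and 6.71% to 22.9%, and Hoxc had no H3K27ac peak in 22 of 23 lists, the exception being 1 kb (0.850%) in 1 list, HFD female 2.

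H3K4me1 was spread more evenly, at 70.9% to 83.3% of Hoxa, 36.8% to 57.6% of Hoxb, 19.4% to 43.5% of Hoxd and 15.1% to 24.6% of Hoxc. Hoxc thus held H3K4me1 peaks where H3K27ac was nearly absent, and its RNA was low per length too, with at most 0.313 RPKM on average (Hoxc4). Labels do not tie RNA and ChIP libraries to the same animals, and the cells were obtained differently.

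**Figure D4:**
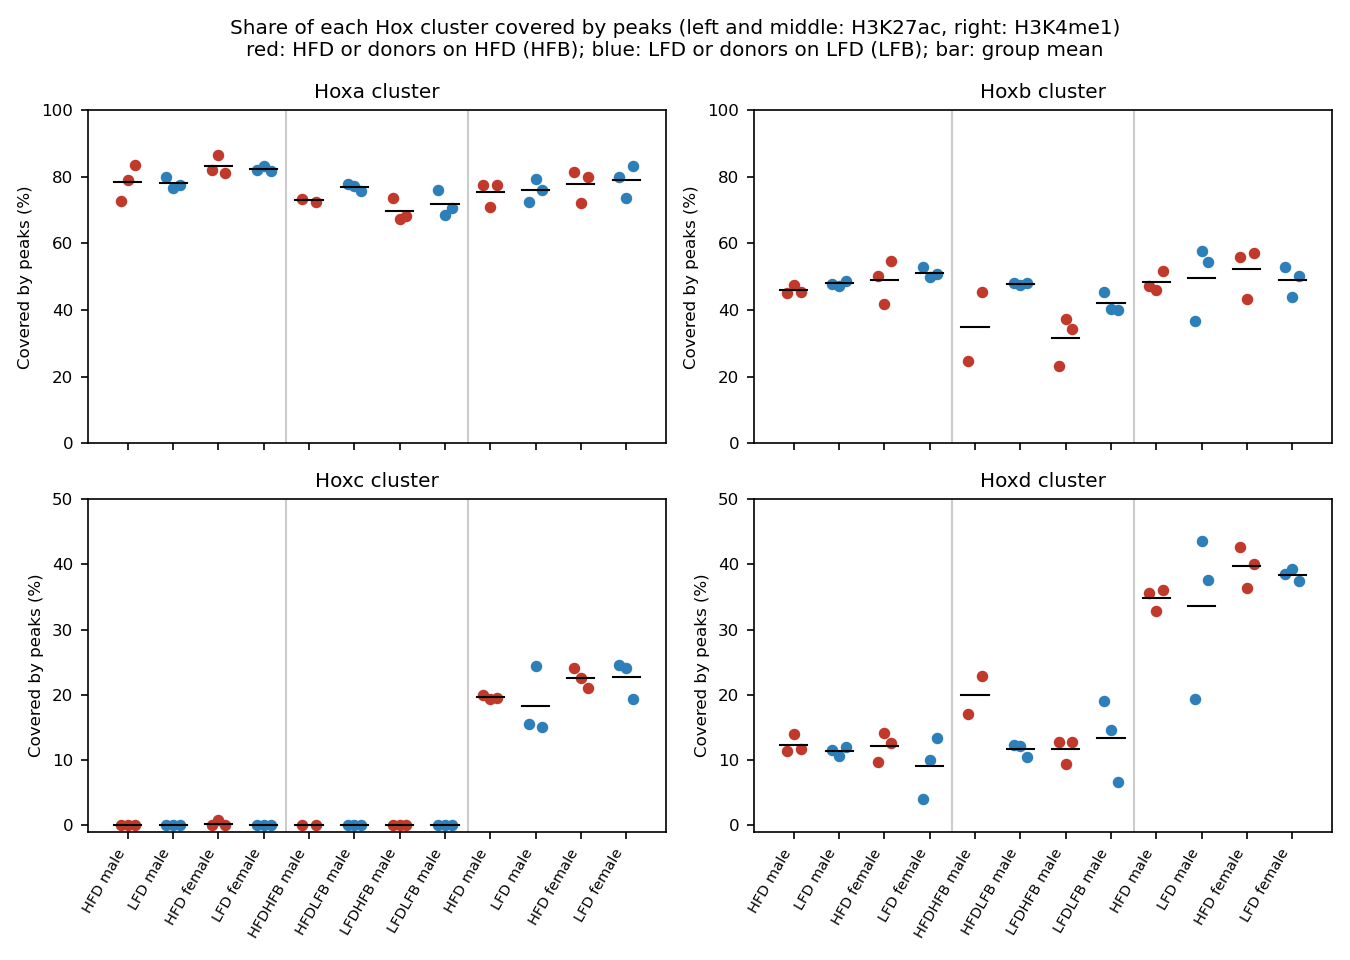
Share of each Hox cluster covered by peaks (%), 1 point per library and a bar at the group mean, for H3K27ac of long-term fed mice (left), H3K27ac of recipients (middle) and H3K4me1 of long-term fed mice (right); the upper panels run to 100% and the lower to 50%. In the Hoxb panel the HFB recipients (red) lie below the LFB recipients (blue) of the same diet, with the lowest at 23% (LFDHFB 1) and 24.6% (HFDHFB 1).

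At Hoxb, recipients of HFB had less H3K27ac coverage in value, and the difference did not pass the adjusted test. Covered length was 43.3 and 79.7 kb in HFDHFB, 84.5, 83.3 and 84.5 kb in HFDLFB, 40.5, 65.5 and 60.5 kb in LFDHFB and 79.9, 71.1 and 70.3 kb in LFDLFB, out of 175.9 kb. Within each diet every HFB library was below every LFB library. The mean was 57.9 ± 16.2 kb (SD, n = 5) with HFB and 79.0 ± 6.60 kb (SD, n = 6) with LFB, a pooled difference of -21.0 kb (two-sided exact permutation test with donors exchanged within each diet, p = 0.005, the smallest this design allows), which did not pass after adjustment over the 12 coverage tests (p = 0.06). Since HFDHFB has 2 lists, the pooled groups hold the diets in unequal shares, and within diets the difference was -22.6 kb on the HFD and -18.3 kb on the LFD. Without HFDHFB 1, the one on the HFD was -4.40 kb, and without LFDHFB 1 the one on the LFD was -10.8 kb. On the whole genome the recipient lists covered 93.1 to 132 Mb, and per Mb covered the Hoxb coverage was 531 bp with HFB and 697 bp with LFB (exact permutation p = 0.01, adjusted p = 0.12), with the donors overlapping on the LFD.

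At promoters, the missing peaks were in the 3′ and middle part of the cluster. Covered length between the genes was not measured by region, so the place of the whole difference is not shown. HFDHFB 1 and LFDHFB 1 had no H3K27ac peak within 1000 bp of the starts of Hoxb2, Hoxb3, Hoxb4, Hoxb5 or Hoxb6. A peak at Hoxb2 was also missing from 4 of the other 9 recipient lists and one at Hoxb3 from 8 of them. LFDHFB 2 also lacked a peak at Hoxb4 and at Hoxb5, and LFDLFB 3 lacked one at Hoxb4. Of these genes, only at Hoxb6 was the absence limited to HFDHFB 1 and LFDHFB 1. The gene bodies of Hoxb4, Hoxb5 and Hoxb6 were 0% covered in both. In the 6 LFB lists the gene body of Hoxb6 was 70.2% to 100% covered, and in the other 3 HFB lists it was 46.5%, 28.5% and 54.9%. Hoxb6 was picked after these values were seen, and other genes of the cluster overlapped between donors within a diet: Hoxb5 was 100% covered in HFDHFB 2 and in all 3 HFDLFB lists, Hoxb4 was 58.5% covered in LFDHFB 3 and 47.5% in LFDLFB 3, and Hoxb2 was 64.1% covered in LFDHFB 2 and 0% in LFDLFB 2. Toward the 5′ end, Hoxb7, Hoxb8, Hoxb9 and Hoxb13 had a promoter peak in 11 of 11 recipient lists. The gene body of Hoxb7 was 18.2% covered in both HFDHFB 1 and LFDHFB 1 and that of Hoxb8 57.9% and 59.6%, against 86.4% to 100% and 98.9% to 100% in the other 9, while the body of Hoxb13 was 100% covered in all 11. RNA libraries of the same numbers are given beside these, although no label says that they come from the same animals. In RNA, HFDHFB 1 and LFDHFB 1 had the lowest Hoxb2 to Hoxb8 of their groups (10.7 and 11.1 CPM). LFDLFB 1 and 3 were lower still (9.60 and 8.05 CPM). The RNA library LFDHFB 3 had little Hoxb13 and Hoxd13, while the H3K27ac library of that number covered the Hoxb13 body by 100% and that of Hoxd13 by 81.8%.

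None of the 12 coverage tests passed after adjustment. For Hoxa by donor, H3K27ac covered 71.4 ± 2.99 kb (SD, n = 5) with HFB and 74.7 ± 3.79 kb (SD, n = 6) with LFB, a difference of -3.28 kb (exact permutation p = 0.08, adjusted p = 0.48). For Hoxd it covered 16.8 and 22.6 kb in HFDHFB, above the 10.4 to 12.2 kb of HFDLFB, but 9.23 to 12.6 kb in LFDHFB against 6.63 to 18.8 kb in LFDLFB, and the pooled difference was 2.37 kb (exact permutation p = 0.43, adjusted p = 1). By long-term diet, the H3K27ac differences (HFD minus LFD, within sex) were 0.60 kb for Hoxa, -3.77 kb for Hoxb, 0.17 kb for Hoxc and 2.01 kb for Hoxd, and those of H3K4me1 were -0.88, 1.67, 0.70 and 1.29 kb, with exact permutation p from 0.245 to 1. In each of these 8 the diets overlapped in both sexes.

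At single promoters, read as a peak within 1000 bp of the start, 17 of 38 members had H3K27ac in all 12 long-term lists, where 44.7% of all 25494 genes did, 8 had it in some lists, where 9.33% did, and 13 in none, where 46.0% did. The 17 were 9 of 10 Hoxa genes, all but Hoxa2, then Hoxb4 to Hoxb9 and Hoxb13, and Hoxd3. In recipients 14 members had it in all 11 lists, 11 in some and 13 in none, beside 44.7%, 11.3% and 44.0% of all genes. H3K4me1 was at 20 member promoters in all 12 lists and at 16 in some, where 49.6% and 15.8% of all genes did, and only Hoxa2 and Hoxc10 had it in none, beside 34.6%. These shares are given as a description.

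For H3K27ac, 6 of 9 Hoxd promoters had a peak in some long-term lists and not in others, against 2 of 10 for Hoxb, whereas for H3K4me1 it was 3 of 9 for Hoxd, 6 of 10 for Hoxb and 6 of 9 for Hoxc. H3K27ac was found at Hoxd13 in 11 of 12 long-term and 11 of 11 recipient lists and at Hoxd11 in 11 and 10, but at Hoxd12 in 6 and 6, Hoxd8 in 5 and 4, Hoxd9 in 1 and 5 and Hoxd10 in 1 and 3. Hoxd1 and Hoxd4 had none in any list, while H3K4me1 was at both in 12 of 12. In the Hoxc cluster no promoter had H3K27ac in any of 23 lists, and H3K4me1 was at Hoxc6 and Hoxc9 in 12 of 12, Hoxc4 and Hoxc5 in 11, Hoxc11 in 9, and Hoxc8, Hoxc12 and Hoxc13 in at most 2.

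A promoter was called exclusive when all lists of a group, and no list of the group it was compared with, had a peak there. For H3K27ac, Hoxd10 and Hoxd12 were exclusive to HFDHFB against HFDLFB (19 genes in all, 0.0745%), Hoxd8 to LFDLFB against LFDHFB (0.106% of all genes) and Hoxd10 to HFDHFB against LFDHFB (0.412%). The Hoxd10 and Hoxd12 results rest on 2 HFDHFB lists. In those lists the gene body of Hoxd10 was 0% covered, so its peaks lay within 1000 bp of the start but outside the gene. The body of Hoxd12 was 34.6% and 77.7% covered. No member was exclusive between HFDLFB and LFDLFB (0.255% of all genes, either way), or for H3K27ac between the long-term diets in males (0.0784%) or females (0.114%), or for H3K4me1 in males (0.126%). For H3K4me1, Hoxb3 was exclusive to LFD females (0.0706% of all genes). That holds for the window around its start only. H3K4me1 covered the gene body by 42.7%, 0% and 57.4% in HFD females and by 40.3%, 12.1% and 36.3% in LFD females. These members, picked out after their peaks were seen, carry no test.

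**Figure D5:**
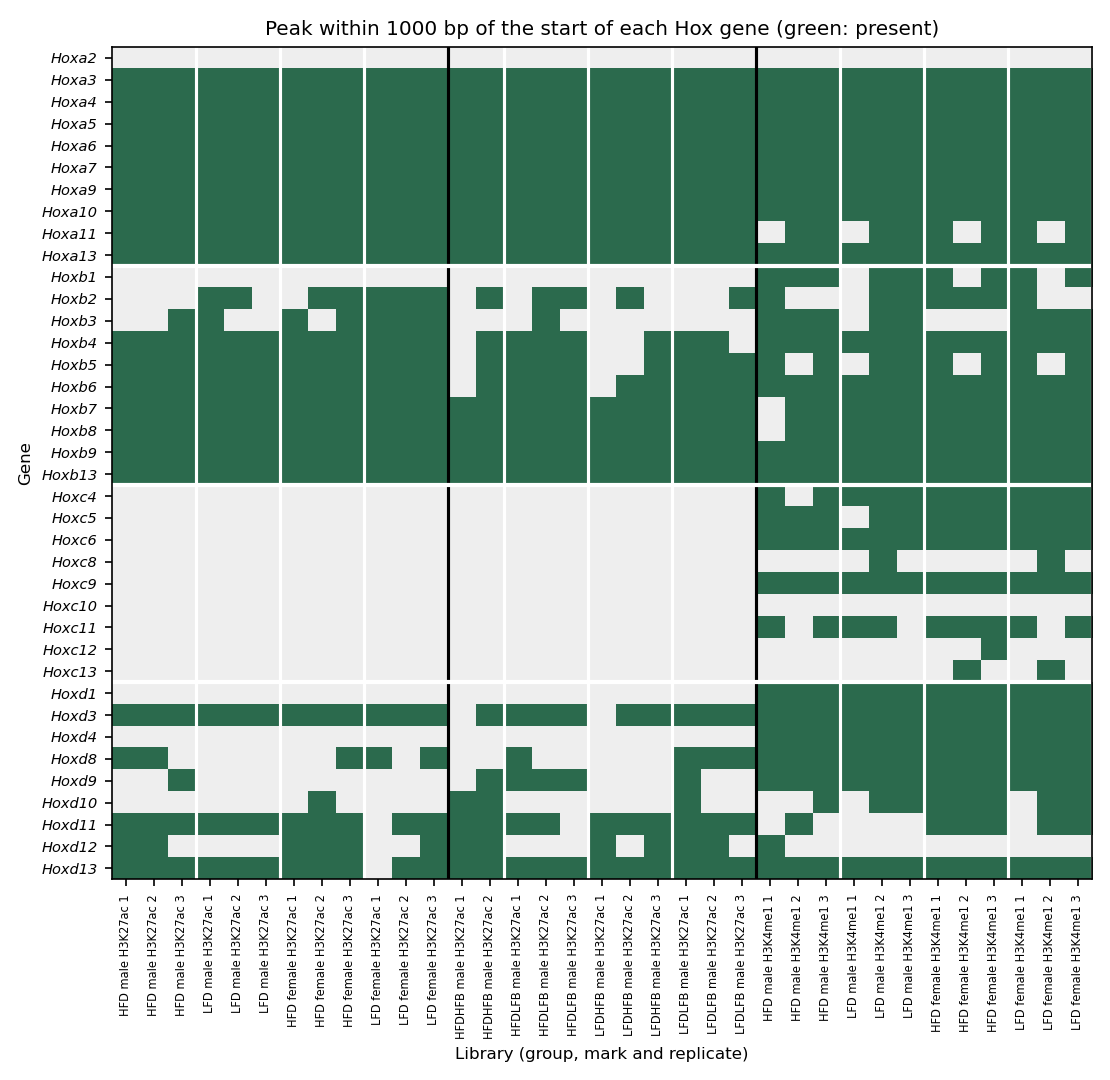
Presence (green) or absence (grey) of a peak within 1000 bp of the start of each of the 38 Hox genes (rows) in the 35 histone mark lists (columns), with black lines between H3K27ac of long-term mice, H3K27ac of recipients and H3K4me1 of long-term mice. In H3K27ac the Hoxa rows are filled apart from Hoxa2 and the Hoxc rows are empty, and HFDHFB 1 and LFDHFB 1 lack it at Hoxb2 to Hoxb6.

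HNF4α, a nuclear receptor of the intestinal epithelium, had peaks in all 4 clusters. The 4 lists of long-term fed males held 9 to 16 peaks there, of 21308 to 27766 in all. Merged, these gave 24 sites, 7 in Hoxa, 11 in Hoxb, 2 in Hoxc and 4 in Hoxd, and 13 of them were found in at least 2 lists. Sites 2 and 12, printed above, were in all 4, and H3K27ac covered the centre of both in 23 of 23 histone lists and H3K4me1 in 12 of 12. By diet, 3 sites had a peak in both LFD lists and neither HFD list, and no site the reverse. These lay 38424 bp before Hoxb9, 654 bp into Hoxb9 and 1552 bp into Hoxb2, and with 2 lists against 2 an exact permutation test cannot go below p = 0.33.

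A peak within 1000 bp of the start was found for 2, 1, 3 and 4 of 38 members in the lists HFD 1, HFD 2, LFD 1 and LFD 2, beside 12.9%, 14.2%, 17.2% and 14.6% of all genes. Within 1000 bp of a member's start were site 2 (Hoxa4), a site 975 bp into Hoxa11 in 1 list, the site in Hoxb9 in 2 lists, a site 123 bp before Hoxb13 in 1 list (LFD 2), whose peak covers most of the Hoxb13 sequence printed above, and sites at Hoxd9 and Hoxd4 in 1 list each. None was at Hoxd13 or Hoxb8. The site 38424 bp before Hoxb9, chr11:96094082-96094353, had no H3K27ac over its centre in any of 23 lists, the site at Hoxd9 had it in 5, and the other 5 sites in Hoxc and Hoxd had it in at most 1.

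The same cores were counted in each peak over its whole length, which differs between peaks. The CDX core TTTATNG was in 6 of 10, 5 of 9, 9 of 16 and 6 of 11 cluster peaks of the lists HFD 1, HFD 2, LFD 1 and LFD 2, where 23.7%, 24.6%, 24.2% and 23.1% of all peaks held it. The HNF4 core CAAAGNNCA was in 3, 1, 3 and 1 of the same peaks, where 27.9%, 25.2%, 27% and 24.6% of all peaks held it. The lists share sites, so these are not 4 independent counts, and no test was made of them.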

How the data were processed

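The authors deposited raw counts per gene for 12 RNA-seq libraries, made with STAR 2.5 and featureCounts 1.5.0-p1 on mm9. The deposited peak lists give the authors' peak positions in mm9 with no score or signal, so their depth is unknown here. Per the labels and the study's methods, reads were aligned with Bowtie 0.12.8 and peaks came from SICER and HOMER. Libraries were grouped by label. Counts were fitted with edgeR 4.0.16 (quasi-likelihood test, 4 groups, TMM, filterByExpr, 15893 genes, Benjamini-Hochberg adjustment), with DESeq2 1.42.0 as an alternative, in R 4.3.3. RPKM used GENCODE exon lengths. Peaks were handled in Python 3.11.15, and coverage was tested by exact permutation within sex or recipient diet. The members and lists were chosen with earlier results of these data known. The genes described in full were the 3 with the highest mean RPKM in each cluster and those with an unadjusted p under 0.05 in HFDHFB against HFDLFB or in the interaction; others were chosen after their values were seen. Samples that shared a replicate number did not consistently deviate together from their group means. Over the genes tested, r ran from -0.59 to 0.45 and was over 0.1 in 6 of 18 pairs. It was 0.36 between HFDHFB 3 and LFDHFB 3. Gene arrays, 16S data and HNF4α of recipients were not analysed here.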

Additional observations from a re-analysis of the deposited data

How the results depend on the processing

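Of 851 values recomputed for 52 results, 801 were taken as unchanged, 48 took the other sign and 2, both counts, moved. For a fold change or coverage difference, unchanged means no change of sign or of side of an adjusted p of 0.05. None passed that threshold in the main setting, so this means that they stayed short of it. For a count of members, promoters or sites it means equal or of similar size, by a loose rule. Members with H3K4me1 at the promoter in all lists counted as unchanged at 20 and 14. The 14 came from asking that a peak cover at least 50% of the window. No member passed an adjusted p of 0.05 by edgeR under any setting. With a replicate block, members under an unadjusted p of 0.05 numbered 1, 2, 2, 0 and 5 (donors on the HFD, donors on the LFD, interaction, diets with HFB, diets with LFB), against 4, 4, 4, 0 and 5 without it, beside 6.8%, 2.06%, 8.1%, 5.35% and 3.79% of all genes with the block and 9.07%, 3.72%, 11.3%, 7.46% and 5.33% without, and on the HFD Hoxb6 was at -0.40 and Hoxd13 at -0.10 (log2 fold change). Leaving out libraries was chosen after seeing the data in 2 cases. Without LFDHFB 3 and HFDHFB 3, the log2 fold changes by donor were -0.023 for Hoxb6, 0.40 for Hoxd10 and 0.34 for Hoxd11 on the HFD, and 0.12 for Hoxa13, -0.86 for Hoxc6, -0.92 for Hoxc10 and 0.15 for Hoxd13 on the LFD. Without HFDLFB 1 and 2, those on the HFD were 1.53 for Hoxc4, 0.51 for Hoxc6, 1.86 for Hoxc8, 1.31 for Hoxc10 and -0.61 for Hoxd13. Leaving out each library in turn gave, on the HFD, -0.28 to 0.11 for Hoxa13, -0.34 to 0.57 for Hoxb6, -1.18 to 0.23 for Hoxc4, -1.12 to 0.48 for Hoxd10, -1.06 to 0.43 for Hoxd11 and -0.47 to 0.90 for Hoxd13, and on the LFD -0.68 to 0.12 for Hoxa13, -0.86 to 1.59 for Hoxc6, -0.92 to 6.73 for Hoxc10, -1.26 to 0.18 for Hoxd10 and -0.98 to 0.15 for Hoxd13. It gave coverage differences of -0.529 to 2.23 kb for Hoxa by long-term diet (H3K27ac), -1.91 to 0.294, -2.73 to 4.59, -0.573 to 1.67 and -1.98 to 2.79 kb for H3K4me1 at Hoxa, Hoxb, Hoxc and Hoxd, and -26.5 to -16.7 kb for Hoxb by donor. Per Mb covered, the Hoxa differences in H3K27ac were -37.8 bp by long-term diet and 0.493 bp by donor. The 2 members with no H3K4me1 promoter peak became 1 within 2000 bp of the start and 5 when a peak had to cover at least 50% of the window. The causes were not tested.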
